A study of Solanum lycopersicum with 6 samples.

Results

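Annotated noncoding RNA loci of tomato (Solanum lycopersicum) were followed in fruit RNA-seq libraries as a class of their own. Members were all gene models whose identifier carries an r in place of the g of coding loci (Solyc04r022620.1, for example). They numbered 6154 of the 40229 gene models in the deposited table, against 34075 coding loci. For all 6154 the table's description is blank or reads None, so each locus is known here by its identifier, whose first digits name the chromosome. RNA came from fruit of the dwarf cultivar Micro-Tom, sampled 25 days after anthesis, with 3 wild-type libraries (genotype WT) and 3 libraries of genotype SlLBD40-KO, in which a LATERAL ORGAN BOUNDARIES domain transcription factor gene was knocked out. The labels do not say how many knockout lines, plants or pools were used, so p-values refer to the spread among the libraries, which may be partly technical. In such bulk RNA, fewer cells of a type and less RNA per cell cannot be told apart.

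Noncoding loci of plants include long noncoding RNAs, which are transcribed mostly by RNA polymerase II and often spliced and polyadenylated, as well as precursors of small RNAs. Such transcripts are typically less abundant and more restricted to particular tissues or stages than messenger RNAs. Small RNA precursors are cut by Dicer-like enzymes and their products loaded into Argonaute proteins, while the exosome degrades or trims many other noncoding transcripts. In tomato fruit, some long noncoding RNAs have been linked to ripening.

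The header of the table names no unit, and values were read as TPM, transcript abundance scaled by length and library total, because every library summed to between 987932 and 994646. TPM keeps no read number, so library depth is unknown and counting intervals could not be given. Fruit markers (13 loci) summed to between 7807 and 46840 TPM, with 4 or 5 of them at 0 in each library. TOM2A11 (191 to 285 TPM) and the FRUITFULL-like MADS-box gene FUL2 (229 to 296 TPM) were steady, whereas FUL1 ranged from 230.5 to 872 TPM and Solyc07g049135.1, described as a fruit-specific protein, from 6065 TPM in knockout 1 to 45222 TPM in wild type 1. Seed storage and oil body transcripts (43 loci) summed to 4657 TPM in wild type 1 and 4699 TPM in knockout 1. In the other 4 libraries they summed to between 62.6 and 431 TPM. In every library 18 to 25 of the 43 loci were at 0. A wider list of 106 loci, with bifunctional inhibitors kept, served to mark wild type 1 and knockout 1 as the seed-rich libraries. It summed to 14255 and 5166 TPM in these, and to between 604 and 2228 TPM in the other 4. The labels give no identifier for SlLBD40. Solyc02g085910, taken for it from memory, overlapped between genotypes (1.57 to 5.35 TPM and 0.77 to 3.85 TPM). So did Solyc05g009320, described as LOB domain-containing protein 40 (0.79 to 3.41 TPM and 0.61 to 1.51 TPM). Which of them is SlLBD40 is not settled here, and neither level checks the labels. The number after a genotype is that of the table's column. The wild-type and knockout samples also carry different title prefixes and file-name tags in the labels, so genotype cannot be told apart from what these mark. Whether a noncoding locus overlaps a coding gene, and whether reads were counted by strand, is not given in the sources used here; reads of overlapping or antisense partners could therefore be shared.

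Most noncoding loci gave little or no signal in fruit. Of the 6154, 2728 (44.3%) were listed at 0 in all 6 libraries, against 28.7% of coding loci. At least 1 TPM in at least 3 of the 6 libraries was reached by 1189 noncoding loci (19.3%), against 17179 coding loci (50.4%), and 711 noncoding loci reached 1 TPM in all 6. Just inside this limit, Solyc01r002380.1 stood at 0.30, 1.74 and 0.68 TPM across the wild-type libraries and at 1.59, 1 and 0.19 TPM across the knockout libraries, and Solyc01r005140.1 reached 1 TPM in the 3 knockout libraries only (1, 1.44 and 2.98 TPM against 0.60, 0.66 and 0.82 TPM). Just outside it, Solyc02r011040.1.2 stood at 2.36, 1.56 and 0.99 TPM across the wild-type libraries and at 0.32, 0 and 0 TPM across the knockout libraries. Solyc05r023690.1 stood at 0.99, 0.34 and 1.5 TPM and at 2.18, 0.14 and 0 TPM, also just outside.

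The loci that passed were also lower than coding ones. Their median level over the 6 libraries was 3.96 TPM (quartiles 1.97 and 9.30 TPM), against 16.8 TPM (6.63 and 40.1 TPM) for coding loci that passed. A mean of 10 TPM was reached by 276 noncoding loci, 100 TPM by 26 and 1000 TPM by 5. A library with a value of 0 was seen for 81 of the 1189 (6.81%), against 2.92% of coding loci. At like levels the classes were closer, at 14.9% of noncoding and 15.7% of coding loci under 2 TPM. From 2 to 5 TPM the shares were 6.23% and 5.95%, and from 5 to 20 TPM 3.23% and 2.26%. They were 0% and 0.80% from 20 to 100 TPM, and 0% and 0.66% at 100 TPM or more. The number at 1 TPM or more per library was 1088, 1129 and 1253 in wild type and 1282, 1150 and 1096 in the knockout, so the genotypes overlapped.

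**Figure D1:**
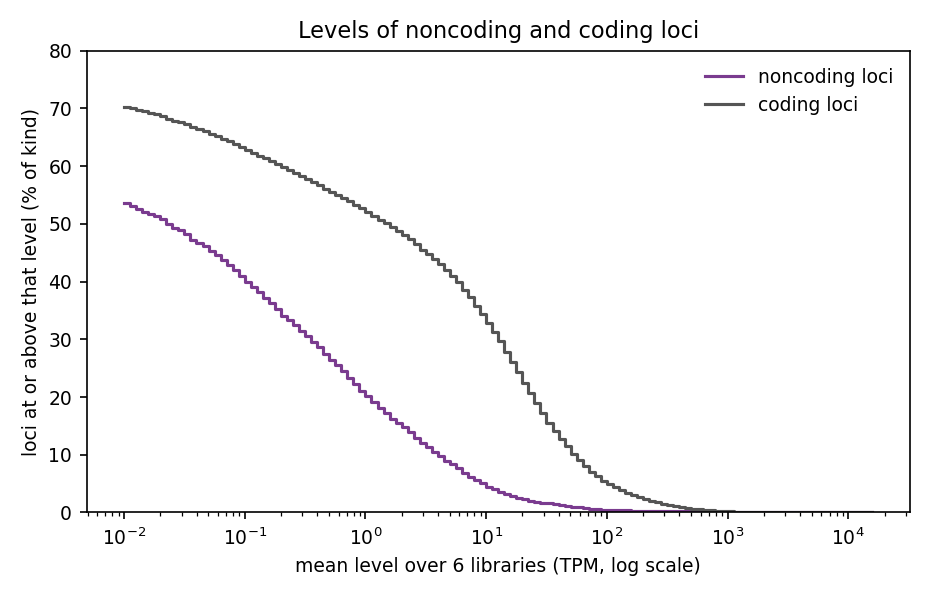
Share of noncoding (purple) and coding (grey) loci whose mean level over the 6 libraries was at or above the TPM on the log-scaled horizontal axis. The noncoding curve lies below the coding one, in step with medians of 3.96 and 16.8 TPM among loci that passed the filter.

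Together the noncoding loci took a small share of the transcript total, and 2 loci made up much of that share in the libraries where it was highest. The share was 2.03%, 2.20% and 2.75% in wild type 1 to 3 and 2.04%, 4.15% and 4.59% in knockout 1 to 3. Knockout 2 and knockout 3 were high, while knockout 1 lay at the level of wild type 1, so the groups overlapped. The means were 2.33 ± 0.374% and 3.59 ± 1.36% (SD, n = 3), a difference of 1.27 percentage points, which is smaller than the spread of the knockout libraries. Without the 2 most abundant loci, a sum chosen after their values were seen, the shares were 2.02%, 1.86% and 2.42% in wild type and 1.87%, 2.18% and 2.02% in the knockout. That difference was −0.074 percentage points, so the higher mean of the knockout rested on those 2 loci. Between wild type 2 and wild type 3 they differed little, at 0.346% and 0.333%, and the difference in share came from other loci. Coding loci made up the remainder of each library.

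**Figure D2:**
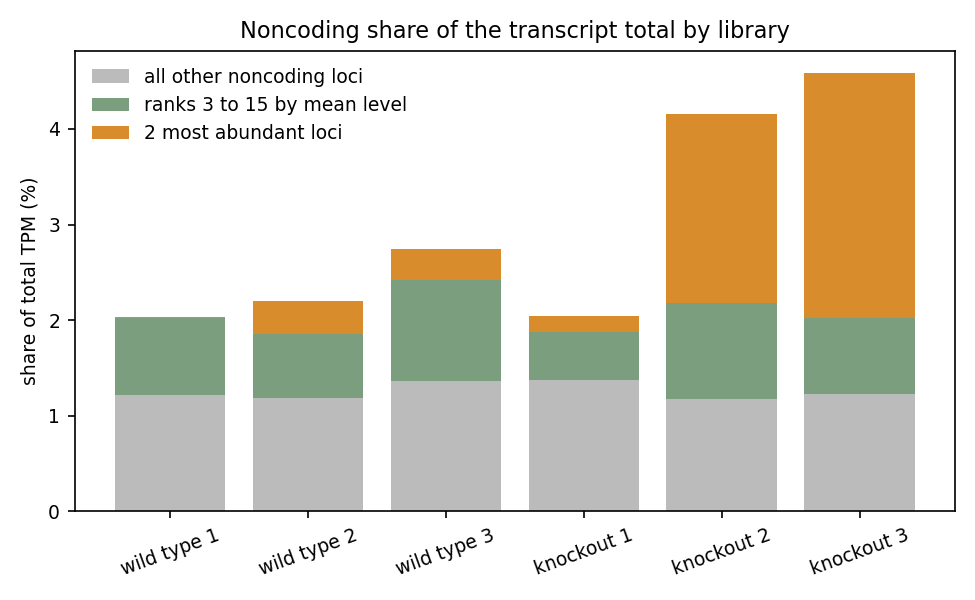
Share of each library's total TPM taken by noncoding loci, split into the 2 most abundant loci (orange), the next by mean level down to rank 15 (green) and all others (grey). The orange part ranges from 0.011% in wild type 1 to 2.57% in knockout 3, while the parts below it sum to between 1.86% and 2.42%.

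The 2 most abundant loci, Solyc10r047030.1 and Solyc10r047040.1 on chromosome 10, carry consecutive numbers and were high and low in the same libraries. Solyc10r047030.1 stood at 44.3, 1405 and 1701 TPM across the wild-type libraries and at 799, 11115 and 11949 TPM across the knockout libraries. Solyc10r047040.1 stood at 64.5, 2035 and 1606 TPM across the wild-type libraries and at 868, 8406 and 13525 TPM across the knockout libraries. For both, knockout 1 lay within the wild-type range and wild type 1 stood far below all other libraries, so the groups overlapped. The ratio of the first to the second stayed between 0.687 and 1.32 while the highest library exceeded the lowest 270.04-fold and 209.8-fold. Neither passed the test, with log2 fold changes of 3.31 (SE 1.61, limma adjusted p = 0.342) and 2.95 (SE 1.52, limma adjusted p = 0.370).

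Around this pair, Solyc10r047020.1 was listed at 0 in all 6 libraries and Solyc10r047050.1 reached at most 0.25 TPM. A model with a further suffix to the first number, Solyc10r047030.1.1, was far lower, at 1.2, 1.82 and 0.73 TPM across the wild-type libraries and at 7.90, 10.1 and 31.7 TPM across the knockout libraries. Its groups did not overlap, but it was not called (limma adjusted p = 0.0904). Within each genotype the pair was lowest in the seed-rich library (wild type 1, knockout 1). Transcripts of RIN, a MADS-box regulator of ripening, were lowest in wild type 1 and highest in knockout 3 (1.53, 19.7 and 8.14 TPM in wild-type fruit; 27.3, 20.9 and 112.7 TPM across the knockout libraries). NOR, a NAC domain regulator of ripening, was also lowest in wild type 1 and highest in knockout 3. It stood at 3.29, 28.86 and 28.95 TPM across the wild-type libraries and at 80.4, 54.0 and 402 TPM across the knockout libraries. For RIN and NOR all knockout libraries lay above all wild-type ones, as for 8.26% of all loci tested. ACO1, an enzyme of ethylene synthesis, had another order, at 672, 1317 and 2236 TPM across the wild-type libraries and at 300.9, 403 and 751 TPM across the knockout libraries, highest in wild type 3 and lowest in knockout 1. The part of seed content or ripening stage in the levels of the pair was not tested.

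The most abundant loci ranged from steady to very variable. Of the 15 with the highest mean, 6, the pair included, differed by more than 10-fold between their highest and lowest library. Another 5 differed by less than 3-fold, and the rest lay between. The steadiest was Solyc06r031920.1, at 534, 491 and 435 TPM across the wild-type libraries and at 387, 395 and 483 TPM across the knockout libraries. Solyc01r002880.1 stood at 353, 309 and 251 TPM across the wild-type libraries and at 417, 343 and 376 TPM across the knockout libraries. Solyc05r024360.1 ranged from 472 to 1214 TPM across the wild-type libraries and from 728 to 854 TPM across the knockout libraries. The groups overlapped for each of these, and log2 fold changes were −0.21 (SE 0.22), 0.33 (SE 0.23) and −0.028 (SE 0.36). Solyc12r058200.1 ranged from 508 to 663 TPM across the wild-type libraries and from 511 to 1209 TPM across the knockout libraries, and Solyc07r036640.1 from 119 to 264 TPM and from 211 to 302 TPM. Solyc06r032090.1 ranged from 264 to 422 TPM across the wild-type libraries and from 355 to 1300.2 TPM across the knockout libraries. These also overlapped.

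The variable loci did not follow genotype. Solyc09r041890.1 stood at 0.21, 96.2 and 1920 TPM across the wild-type libraries and at 126, 164 and 4384 TPM across the knockout libraries. Solyc03r017520.1 stood at 3733, 128 and 716 TPM across the wild-type libraries and at 106, 2813 and 101 TPM across the knockout libraries. In both loci single libraries of either genotype were high, and limma gave adjusted p = 0.626 and 0.768. Solyc09r046070.1 stood at 243, 258 and 757 TPM across the wild-type libraries and at 109, 1083 and 0.84 TPM across the knockout libraries. Its neighbour by number, Solyc09r046080.1, stood at 183, 176 and 596 TPM across the wild-type libraries and at 70.4, 1045 and 1.06 TPM across the knockout libraries. A suffixed model of the first, Solyc09r046070.1.1, followed the same order, from 0.62 TPM in knockout 3 to 587 TPM in knockout 2. All 3 were thus highest and lowest in 2 libraries of the same genotype.

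Among the 15, the groups did not overlap for 2 loci, both lower in the knockout. Over all loci tested, 24.4% had groups that did not overlap, and 16.1% were lower in the knockout in this way. The 2 of 15 therefore do not exceed the share over all loci. Solyc10r050300.1 stood at 459, 954 and 595 TPM across the wild-type libraries and at 216, 270.1 and 209 TPM across the knockout libraries (log2 fold change −1.47, SE 0.31, limma adjusted p = 0.0975). Solyc07r034430.1 stood at 303, 437 and 392 TPM across the wild-type libraries and at 44.4, 147 and 169 TPM across the knockout libraries (log2 fold change −1.84, SE 0.50, limma adjusted p = 0.142). Neither was called. Solyc04r022250.1 had its 2 highest values in wild type, 2163 and 2463 TPM, but wild type 1 at 426 TPM lay among the knockout libraries (797, 508 and 264 TPM).

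**Figure D3:**
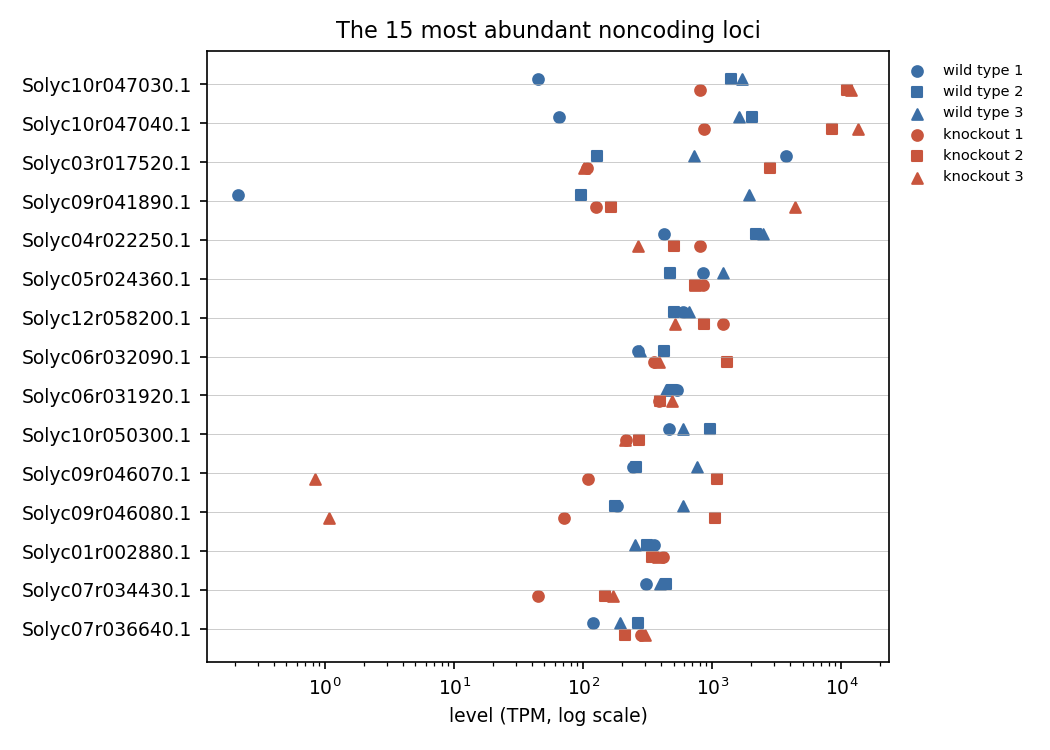
Levels of the 15 noncoding loci with the highest mean TPM, on a log axis, with 1 marker for each wild-type (blue) and knockout (red) library. The uppermost pair spans 44.3 to 13525 TPM with the same library order at the low end, while Solyc06r031920.1 stays between 387 and 534 TPM.

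The comparison of genotypes asked which noncoding transcripts go with the genotype label. Of the 1189 tested noncoding loci, 2 rose in the knockout and 0 fell, at a limma adjusted p under 0.05 over all 18368 loci tested. Calls made up 0.168% of noncoding loci, where 0.0926% of all loci tested were called (0.0436% higher and 0.049% lower), so 2 loci are too few to read a difference in share. Without adjustment, 67 noncoding loci stood higher at p under 0.05, or 5.63% where 6.24% of all loci tested did so, and 59 stood lower, or 4.96% where 11.3% of all loci did so. With median-ratio scaling of the libraries the split was 105 higher and 49 lower of 1167 noncoding loci, while that of coding loci moved from 1079 higher and 2011 lower to 1595 and 1689. Leaving out knockout 3 gave 135 higher and 70 lower noncoding loci, beside 1612 higher and 1758 lower coding loci. When wild type 1 and knockout 1 were dropped together, 32 noncoding loci stood higher and 51 lower, beside 506 and 1037 coding loci. The count of higher loci thus rose in both classes in the first of these fits and fell in both in the second. All fold changes use log2(TPM + 1), so for loci with low values they fall short of the change in TPM.

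Both called loci were close to absent in wild type. Each stood under 1 TPM in all 3 wild-type libraries and passed the filter through the knockout libraries alone, so its groups had to be apart, and the 2 calls are no independent support for a direction. Solyc04r022620.1 on chromosome 4 stood at 0.33, 0.10 and 0.36 TPM across the wild-type libraries and at 29.6, 16.0 and 25.1 TPM across the knockout libraries. The lowest knockout library lay far above the highest wild-type one, with means of 0.263 ± 0.142 and 23.5 ± 6.96 TPM (SD, n = 3; log2 fold change 4.24, SE 0.33, limma adjusted p = 0.0114). Solyc10r050560.1 on chromosome 10 was listed at 0, 0 and 0.34 TPM across the wild-type libraries and at 13.3, 9.17 and 11.3 TPM across the knockout libraries. Its knockout libraries lay within a narrow range (log2 fold change 3.46, SE 0.30, limma adjusted p = 0.0159). Neither call held in every alternative: Solyc04r022620.1 was lost without wild type 2 (adjusted p = 0.0557), wild type 3 (0.0792) or knockout 1 (0.0856). Solyc10r050560.1 was lost without each library but knockout 3, with adjusted p between 0.0531 and 0.104 in those 5 fits, and both were lost with no filter on low values (adjusted p = 0.0753) or without wild type 1 and knockout 1 together (0.198 and 0.209). When single libraries were left out, the log2 fold changes stayed between 4.06 and 4.49 and between 3.34 and 3.60. Of the 17179 coding loci, 15 were called with all libraries, 3 without wild type 2, and 0 without knockout 1, without wild type 3 or without both seed-rich libraries.

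The called locus on chromosome 4 stood beside others with the same direction, a run chosen after the values were seen and given without a test. Its suffixed model Solyc04r022620.1.1 stood at 0.06, 0.02 and 0.03 TPM across the wild-type libraries and at 4.25, 1.18 and 3.92 TPM across the knockout libraries. Solyc04r022640.1 stood at 0.04, 0.10 and 0 TPM across the wild-type libraries and at 12.7, 5.83 and 2.14 TPM across the knockout libraries. Both loci were near 0 in wild type and passed the filter through the knockout libraries alone, which fixed that their groups did not overlap. Between them by number, Solyc04r022630.1 was listed at 0 in all 6 libraries, and on either side Solyc04r022610.1 and Solyc04r022650.1 were listed at 0 in all but knockout 3 (0.22 and 3.38 TPM). Chromosome 4 also carried 6 of the 15 called coding loci, out of 1458 tested there, where no other chromosome carried more than 2. Over all chromosomes 0.0873% of tested coding loci were called, and 0 without knockout 1, wild type 3 or both seed-rich libraries. The difference in share was not tested.

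The other loci with the lowest p among those higher in the knockout and averaging at least 5 TPM there had non-overlapping groups but did not pass the test. Solyc12r055680.1 stood at 0.14, 0.62 and 0.13 TPM across the wild-type libraries and at 7.58, 5.33 and 6.11 TPM across the knockout libraries (log2 fold change 2.51, SE 0.31, limma adjusted p = 0.0533). It too reached 1 TPM in the knockout libraries alone, so its groups had to be apart. Of these loci it was the closest to a call, and it passed with median-ratio scaling of the libraries (adjusted p = 0.0451). Solyc07r036820.1 stood at 0.62, 2.57 and 2.85 TPM across the wild-type libraries and at 14.3, 41.7 and 10.7 TPM across the knockout libraries (adjusted p = 0.0954). The next number, Solyc07r036830.1, showed the same order of libraries at lower levels, 0, 0.69 and 0.91 TPM against 2.23, 7.45 and 2.16 TPM, with knockout 2 highest in each, and it also passed the filter through the knockout libraries alone. Solyc01r005880.1 ranged from 1.87 to 3.41 TPM across the wild-type libraries and from 7.14 to 13.1 TPM across the knockout libraries. Solyc03r017090.1 ranged from 0.72 to 5.05 TPM and from 8.55 to 28.5 TPM.

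In the other direction, 8 loci of at least 5 TPM in wild type had the lowest p, none of which passed (limma adjusted p from 0.0806 to 0.0958). Solyc01r006450.1, the most abundant of them, stood at 199, 108 and 73.5 TPM across the wild-type libraries and at 17.2, 27.0 and 25.5 TPM across the knockout libraries (log2 fold change −2.30, SE 0.39). Solyc09r043140.1 was tightly grouped in wild type, at 9.13, 9.72 and 10.1 TPM, and stood at 0.30, 1.19 and 2.07 TPM across the knockout libraries (log2 fold change −2.37, SE 0.37). Solyc04r023130.1, also on chromosome 4, stood at 15.9, 11.1 and 10.6 TPM across the wild-type libraries and at 2.40, 3.37 and 1.91 TPM across the knockout libraries (log2 fold change −1.93, SE 0.31). In each, all 3 wild-type libraries lay above all 3 knockout ones. Solyc10r046470.1 was nearly constant in the knockout, at 15.9, 15.6 and 14.1 TPM, against 33.2, 46.8 and 48.4 TPM in wild type. Solyc12r054770.1 was likewise constant in the knockout, at 21.5, 21.4 and 23.0 TPM, against 39.5, 66.7 and 66.1 TPM. The remaining 3, Solyc01r003150.1, Solyc12r055300.1 and Solyc08r039180.1, ranged from 3.23 to 20.9 TPM across the wild-type libraries and from 0.31 to 1.73 TPM across the knockout libraries.

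**Figure D4:**
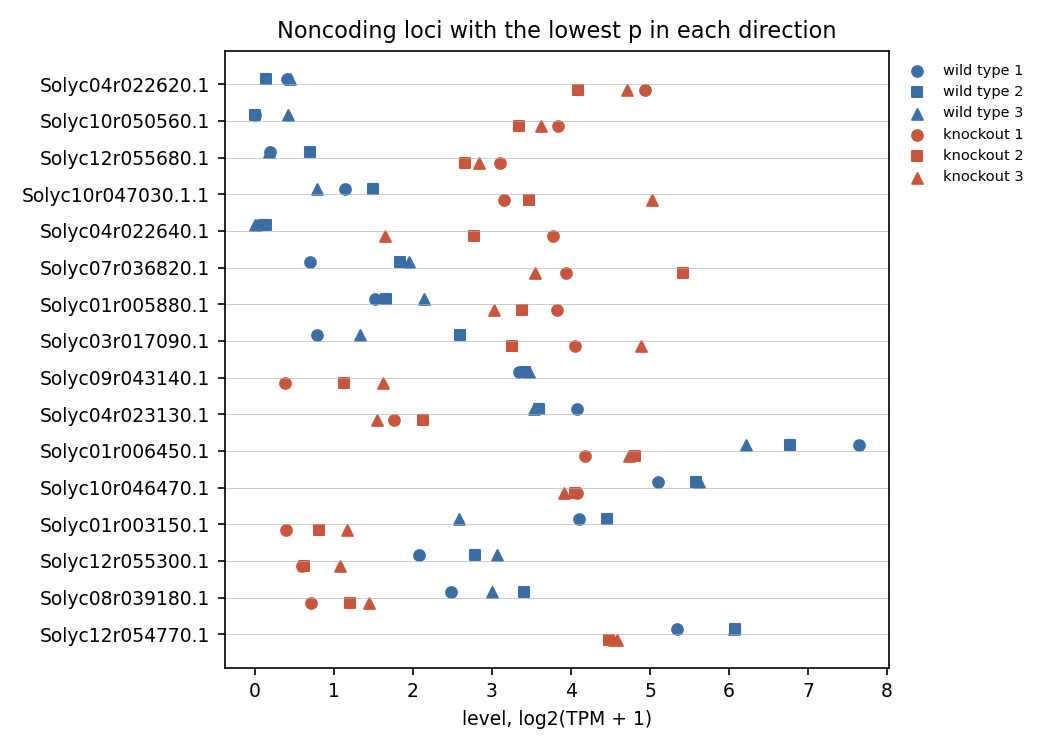
Levels on the log2(TPM + 1) scale of the 8 noncoding loci with the lowest p in each direction among those whose higher genotype averaged 5 TPM or more. Wild-type (blue) and knockout (red) libraries do not overlap in any of them, and the 2 uppermost, Solyc04r022620.1 and Solyc10r050560.1, are the called ones.

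Few tested loci of either class were listed at 0 throughout a genotype while reaching 1 TPM in every library of the other. For the knockout this held for 1 noncoding locus (0.084% of those tested) and 13 coding loci (0.076%), shares that are close. For wild type it held for 0 noncoding loci and 9 coding loci (0.052%). This was Solyc09r044190.1, at 4.35, 1.66 and 2.28 TPM in wild type and listed at 0 in the knockout (limma adjusted p = 0.0881). Of the 1189 tested loci, 16 reached 1 TPM in the knockout libraries alone and 10 in the wild-type libraries alone. These passed the filter only through the genotype where they were high, and so had to differ. Both called loci are among the 16, and Solyc09r044190.1 is among the 10.

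Over the tested loci as a whole, separated genotypes made up a smaller share of noncoding than of coding loci. The groups did not overlap for 186 noncoding loci, 91 higher and 95 lower in the knockout. That is 15.6% of them, where 24.4% of all loci tested and 25.0% of coding loci had groups that did not overlap. The gap lay on the lower side: 7.99% of noncoding loci were lower without overlap, against 16.1% of all loci, while 7.65% were higher, against 8.26% of all loci. At an unadjusted p under 0.05 stood 126 noncoding loci (10.6%), against 17.5% of all loci and 18.0% of coding loci. The counts without overlap include loci that passed the filter through 1 genotype alone and so had to be apart. Those made up 2.19% of tested noncoding loci (16 through the knockout and 10 through wild type) and 1.08% of coding loci (54 and 132). All these shares are descriptions, and the difference between the classes was not tested.

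The same order of the classes was seen at each level. Between 5 and 20 TPM, 12.9% of 371 noncoding loci and 14.04% of 6240 coding loci had an unadjusted p under 0.05. From 20 to 100 TPM the shares were 14.04% of 114 and 19.8% of 5970, and at 100 TPM or more 23.1% of 26 and 34.3% of 1669. Under 2 TPM they were 5.50% of 309 and 10.9% of 1082. From 2 to 5 TPM they were 10.6% of 369 and 15.4% of 2218. The noncoding share was the lower one in all 5 classes of level, by the smallest margin between 5 and 20 TPM. Above 5 TPM, noncoding loci also had the higher median SD between libraries of a genotype. It was 0.57 on the log2 scale between 5 and 20 TPM, against 0.43 for coding loci, and 0.54 against 0.38 from 20 to 100 TPM. Below 5 TPM the classes were close, at 0.42 and 0.43 under 2 TPM.

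The balance of directions also differed. The median log2 fold change was 0.090 for noncoding loci (660 with a higher mean and 529 with a lower one), −0.099 for coding loci and −0.087 for all loci. Median-ratio scaling moved the median of all loci to 0.016, that of coding loci to 0.0074 and that of noncoding loci to 0.17, with 711 higher and 456 lower. The noncoding median was above 0 under either scaling and under each filter and pseudocount tried, but it was −0.015 without knockout 1 and −0.096 when the seed-rich pair of libraries was left out. The noncoding median lay above the coding one in each of the 13 fits, by 0.079 to 0.23. These fits reuse the same libraries, and the difference was not tested. At 100 TPM or more the noncoding median was instead the lower one, −0.40 for 26 loci against −0.13 for 1669 coding loci. In the other classes of level it was the higher one. A change of at least 1 on the log2 scale was seen in 13.5% of noncoding and 14.8% of coding loci.

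**Figure D5:**
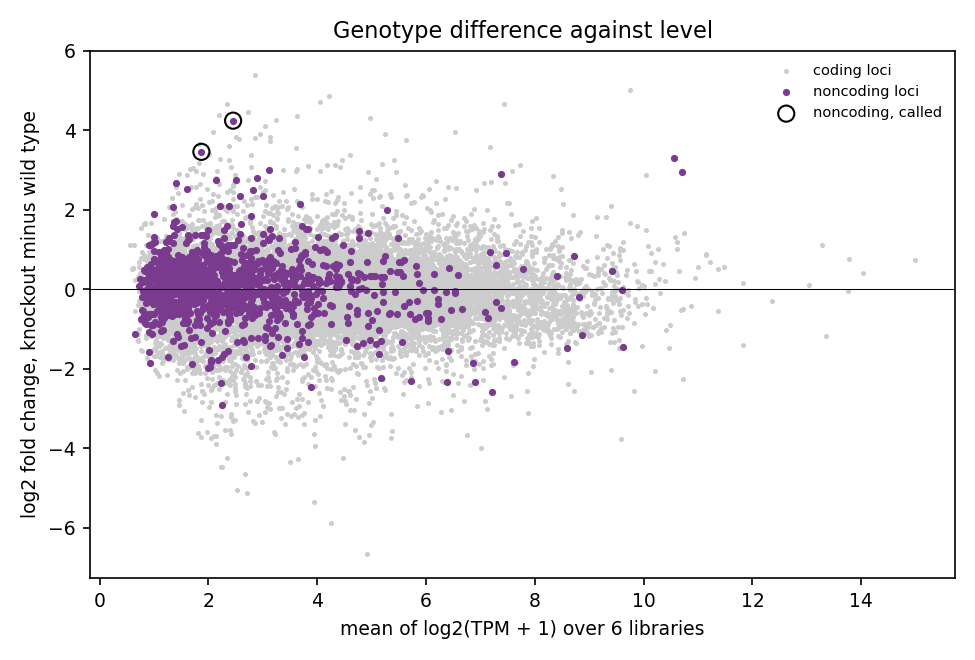
Log2 fold change (knockout minus wild type) against mean log2(TPM + 1) for the 1189 noncoding (purple) and 17179 coding (grey) loci tested. The 2 called noncoding loci (circled) lie at low levels with changes of 4.24 and 3.46, and the uncalled pair at the far right with changes of 3.31 and 2.95 is Solyc10r047030.1 and Solyc10r047040.1.

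Noncoding loci that passed the filter were spread over all 12 chromosomes. The share that passed ranged from 14.1% of 510 loci on chromosome 5 to 24.3% of 600 on chromosome 2, against 44.6% to 54.8% of coding loci. Of the 81 noncoding loci whose identifiers carry the number 0 for the chromosome, 1 passed. Loci at an unadjusted p under 0.05 made up between 5.94% of tested noncoding loci on chromosome 6 and 13.6% on chromosome 8, where 17.5% of all loci tested did so.

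Loci numbered side by side were slightly more alike over the libraries than others, in both classes. For 272 pairs of tested noncoding loci with consecutive numbers, the median Pearson's r of log2(TPM + 1) over 6 libraries was 0.24, against 0.094 over other pairs on the same chromosome. An r above 0.8 was found in 14.3% of these pairs and in 5.95% of the others. Coding loci gave nearly the same medians, 0.22 and 0.13. For 38 pairs of a noncoding locus and a suffixed model of the same number the median was 0.54. All these values come from the same 6 libraries and describe them only. Besides the pairs on chromosomes 9 and 10 above (r = 0.997 and 0.995), Solyc08r037670.1 and Solyc08r037680.1 followed each other closely (r = 0.983). The first stood at 145, 98.4 and 212 TPM across the wild-type libraries and at 59.6, 34.5 and 55.6 TPM across the knockout libraries, and the second at 12.7, 6.84 and 18.7 TPM and 5.19, 3.34 and 4.45 TPM. They were named after their values were seen.

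Coding loci whose descriptions carry words for enzymes that make or turn over noncoding RNA were read beside these loci. Of 225 such loci 87 were tested and 0 were called by limma, with an unadjusted p under 0.05 for 4 that were higher and 16 that were lower. That is 4.60% and 18.4% of the 87, where 6.24% and 11.3% of all loci tested stood higher and lower at that p. Their median log2 fold change was −0.41, against −0.087 for all loci, and 17 of the 87 (19.5%) had a higher mean, against 43.5% of all loci. The difference from other loci was not tested. Among 55 tested loci described as DNA-directed RNA polymerases or their subunits the median was −0.43, with 3 higher and 9 lower at that p. Some descriptions name a polymerase of the nucleus, such as II, III or V, while others name only a subunit. The 55 were not split into polymerases of the nucleus and of plastids. Solyc09g092765.1, described as a subunit beta'', had the library order of Solyc09r046070.1. It stood at 319, 350 and 988 TPM across the wild-type libraries and at 150, 1191 and 1.26 TPM across the knockout libraries. Solyc09g092763.1, Solyc09g092767.1 and Solyc06g048440.3, also described as beta'', were likewise highest in knockout 2 and lowest in knockout 3 (1.03 to 4.23 TPM). The polymerase median of −0.43 includes all of these. For 12 genes of the exosome or other exoribonucleases the median was −0.50, with 1 higher and 4 lower. For 8 Argonaute genes it was −0.25, for 8 Dicer-like genes −0.37 and for 4 RNA-dependent RNA polymerases 0.062.

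The lowest p was that of Argonaute 5 (Solyc06g074730.4), of the family that binds small RNAs, at 4.42, 5.04 and 11.7 TPM across the wild-type libraries and at 0.48, 1.22 and 0.58 TPM across the knockout libraries (log2 fold change −2.11, SE 0.41, limma adjusted p = 0.0904). An RNA polymerase subunit gene (Solyc05g053430.3) stood at 17.5, 22.4 and 22.3 TPM across the wild-type libraries and at 5.87, 9.27 and 6.76 TPM across the knockout libraries. A gene of the 3′ to 5′ exoribonuclease family (Solyc06g005860.3), which trims RNA from its end, stood at 16.9, 16.1 and 19.6 TPM and at 7.46, 7.98 and 7.94 TPM. In all 3 the groups did not overlap, and the other two had adjusted p = 0.0904 and 0.106.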

How the data were processed

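RNA-seq values of 6 tomato fruit libraries were taken from 1 table deposited by the authors. Its values are TPM as judged from column sums just under 1e+06, with no unit per the file headers. TopHat2, HISAT2, StringTie and Cufflinks appear in the submitters' processing notes with neither version nor role. The genome build is not given in the sources used here, nor is the annotation. Columns were assigned to a genotype by their prefix, since their numbers 1 to 3 are not those of the sample titles. Of the noncoding identifiers, 0 matched the RefSeq gene table. The members and gene lists were chosen with earlier results of these data known.

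Loci reaching 1 TPM in 3 or more libraries were tested. The values log2(TPM + 1) were fitted by genotype with limma 3.58.1 (R 4.3.3), letting the variance follow the mean level. Adjusted p-values (Benjamini-Hochberg) cover all 18368 loci, and those under 0.05 were called. The script was tested on simulated data. Count tests did not apply to TPM. Named loci were the 15 with the highest mean, those called, the 8 with the lowest p per direction with at least 5 TPM in the higher genotype, loci listed at 0 in 1 genotype with at least 2 TPM in every library of the other (0 loci), those next to the filter limit and 3 coding genes; others were named after their values were seen. Alternatives were a pseudocount of 0.1, a filter of 5 TPM or none, robust variance moderation in limma, median-ratio scaling, leaving out each library and leaving out both seed-rich libraries, wild type 1 and knockout 1. Figures were drawn with matplotlib 3.10.9.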

Additional observations from a re-analysis of the deposited data

How the results depend on the processing

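Over 12 alternatives, 361 of 389 log2 fold changes of named noncoding loci kept their direction and their side of the threshold. Only 2 of the 33 named loci tested were called, so most had no call to lose and this count says little about the calls. Of the remaining values, 14 changed sign, 13 were lost calls of the 2 called loci and 1 was a call gained. The number of called noncoding loci was 2 with the filter of 5 TPM or the robust option, 3 with median-ratio scaling, 1 with a pseudocount of 0.1, and 0 with no filter on low values or without both seed-rich libraries. It ranged from 0 to 3 when single libraries were left out: 0 without knockout 1, wild type 2 or wild type 3, 1 without knockout 2 or wild type 1, and 3 without knockout 3. Called coding loci numbered 20 with the filter of 5 TPM, 15 with the robust option or the pseudocount of 0.1, and 24 with median-ratio scaling. They numbered 0 with no filter or without both seed-rich libraries, and 0 to 20 without single libraries. Noncoding loci at an unadjusted p under 0.05 numbered 68 of 516 with the filter of 5 TPM, against 2567 of 13696 coding loci. Unfiltered, they numbered 231 of 3426, against 3468 of 24286 coding loci. Without the seed-rich pair of libraries they numbered 83 of 1189, against 1543 of 17179 coding loci. Without single libraries the noncoding count was 97 to 205 of 1189 and the coding count 1964 to 3370 of 17179. Both were highest without knockout 3. Solyc10r050560.1 missed the threshold with a pseudocount of 0.1 (adjusted p = 0.0641).

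The genotype difference in noncoding share was −0.0015 percentage points without the 10 most abundant loci and −0.074 without the 2 most abundant. It was 0.57 without the most abundant locus, 1.90 without both seed-rich libraries, a leaving-out chosen after seeing the data for this measure, and 0.769 to 2.04 without single libraries, lowest without knockout 3 and highest without knockout 1. The difference in loci at 1 TPM per library, 19.3 with all libraries, was −68 without both seed-rich libraries and ranged from −33.7 to 67.5 without single libraries. The count of 1189 became 1545 at 0.5 TPM, 516 at 5 TPM and 711 when all 6 libraries had to reach 1 TPM. The noncoding median ranged from −0.015 to 0.17 without single libraries.

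Uncalled loci that changed sign were Solyc03r017520.1 (0.82 without both seed-rich libraries, −2.74 to 0.047 without single libraries), Solyc05r024360.1 (0.092 with median-ratio scaling, −0.40 to 0.28), Solyc01r002380.1 (−0.030 with a pseudocount of 0.1, −0.48 without both seed-rich libraries, −0.23 to 0.33) and Solyc09r046080.1 (−4.47 to 0.024). The cause was not tested. No paired analysis was run, since the labels give no pairing of wild-type with knockout samples. The columns also carry numbers that are not those of the sample titles. The depth of the libraries is unknown, so counting error could not be set against the spread.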
